A study of Mus musculus with 4 samples.

Results

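The cells described here are the mural cells of mouse mammary tumours, that is pericytes and vascular smooth muscle cells, picked out of single-cell libraries by 5 of their own transcripts. A barcode was taken as mural when Rgs5, Higd1b, Cox4i2, Ndufa4l2 and Kcnj8 together gave at least 4 UMIs (unique molecular identifiers, each counting 1 captured RNA molecule). It also had to have at most 1 UMI of Cdh5 and Pecam1 (endothelium), at most 1 of C1qa and C1qb (macrophages) and at most 3 of Krt8 and Krt18 (luminal epithelium). This mural gate held 267 of 36162 barcodes. The libraries came from 4 tumours of 3 female FVB mice aged 13 to 14 weeks, and every mouse carried the same 3 alleles, MMTV-PyMT, K14Cre and Rosa-tdTomato. MMTV-PyMT expresses the polyoma middle T oncogene from a mammary promoter. K14Cre drives Cre from the keratin 14 promoter and switches on the tdTomato reporter in cells that have used that promoter. Tumour 1 was taken from multiple glands of mouse 1, tumour 2 from an inguinal gland of mouse 2, and mouse 3 gave tumour 3 (thoracic gland) and tumour 4 (inguinal gland). All samples used here are tumours, so the comparisons are between classes and ranges of cells within the same mice.

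Pericytes sit on capillaries inside the basement membrane they share with endothelial cells, and endothelial PDGF-B draws them there through the receptor encoded by Pdgfrb. Vascular smooth muscle cells wrap arterioles and larger vessels, carry a contractile apparatus of smooth muscle actin, myosin and tropomyosin, and set vessel calibre. Both belong to one lineage and grade into each other, and in tumours the coverage of vessels by mural cells is often loose or uneven.

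Many contractile genes carry a CArG box in their promoters, the sequence bound by serum response factor, the transcription factor that drives the smooth muscle programme. The stretches below are shown because Acta2 and Myl9 belong to the contractile score used to order the gated cells, and Myl6 and Crip1 rose with that score. They are RefSeq sequences upstream of the annotated start on GRCm38.p6, written 5′ to 3′ on the strand of the gene, and capitals mark the boxes. A box was read as CC, then 6 bases that are each A or T, then GG, on either strand, or the same with 1 of the 6 inner bases replaced by C or G. Acta2 (smooth muscle actin, chr19:34255383-34255472, minus strand) held 2 boxes of the second kind.
Acta2: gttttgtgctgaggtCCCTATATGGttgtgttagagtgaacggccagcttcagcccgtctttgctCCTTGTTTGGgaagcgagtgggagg
Myl9 (regulatory myosin light chain, chr2:156775288-156775389, plus strand) held 1 box of each kind.
Myl9: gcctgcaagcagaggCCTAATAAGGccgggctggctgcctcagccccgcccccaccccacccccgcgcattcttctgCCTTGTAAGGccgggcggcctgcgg
Myl6 (essential myosin light chain, chr10:128493035-128493074, minus strand) held 1 exact box.
Myl6: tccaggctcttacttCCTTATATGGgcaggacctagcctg
Crip1 (a LIM domain protein, chr12:113151901-113152011, plus strand) held 2 boxes of the second kind.
Crip1: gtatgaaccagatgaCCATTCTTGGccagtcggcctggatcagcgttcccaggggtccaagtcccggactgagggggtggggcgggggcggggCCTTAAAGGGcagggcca
In the 250 bases upstream of 32851 RefSeq starts, 1.47% held an exact box, 7.24% held one with 1 changed base and 8.59% held either. Of the 39 contractile genes listed, 33 matched the table, and 8 of their 38 windows held either kind (21.1%). Windows of Ldb3 shared the same box, so by gene 7 of the 33 held either kind. For the 25 pericyte genes listed, 19 matched and 1 of 26 windows did (3.85%). A match describes the letters in these windows and is not evidence of binding.

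The gate took 50, 39, 101 and 77 barcodes of the 8724, 9580, 8434 and 9424 in tumours 1 to 4. These were 0.573% (exact binomial 95% interval 0.426% to 0.755%), 0.407% (0.290% to 0.556%), 1.20% (0.976% to 1.45%) and 0.817% (0.645% to 1.02%) of the libraries. The share was highest in the thoracic tumour of mouse 3 and lowest in tumour 2, and over mice it was 0.659% ± 0.304 (SD, n = 3). Set against barcodes gated as endothelial, the count was 51.0, 37.1, 34.8 and 40.3 mural per 100 endothelial, so the order of the tumours changed and tumour 1 came first. The intervals cover counting error only, and losses of each cell type during dissociation were not measured.

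A total of 369 barcodes reached 4 UMIs of the 5 genes. The keratin limit removed 77 of them, the C1q limit 22 and the endothelial limit 5, counted where a barcode failed several limits under each. Gated barcodes held 4 to 76 gate UMIs with a median of 14. Just inside the threshold, the 19 barcodes with a sum of 4 had Pdgfrb UMIs in 57.9% and Dcn UMIs in 47.4%. Just outside it, the 35 barcodes with a sum of 3 had them in 45.7% and 42.9%. Dcn encodes decorin and marks fibroblasts. Barcodes with a sum of 3 or 4 thus carried this fibroblast transcript more often than the gate as a whole (14.2%). The 20 barcodes with a sum of 5 had it in 15%.

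**Figure D1:**
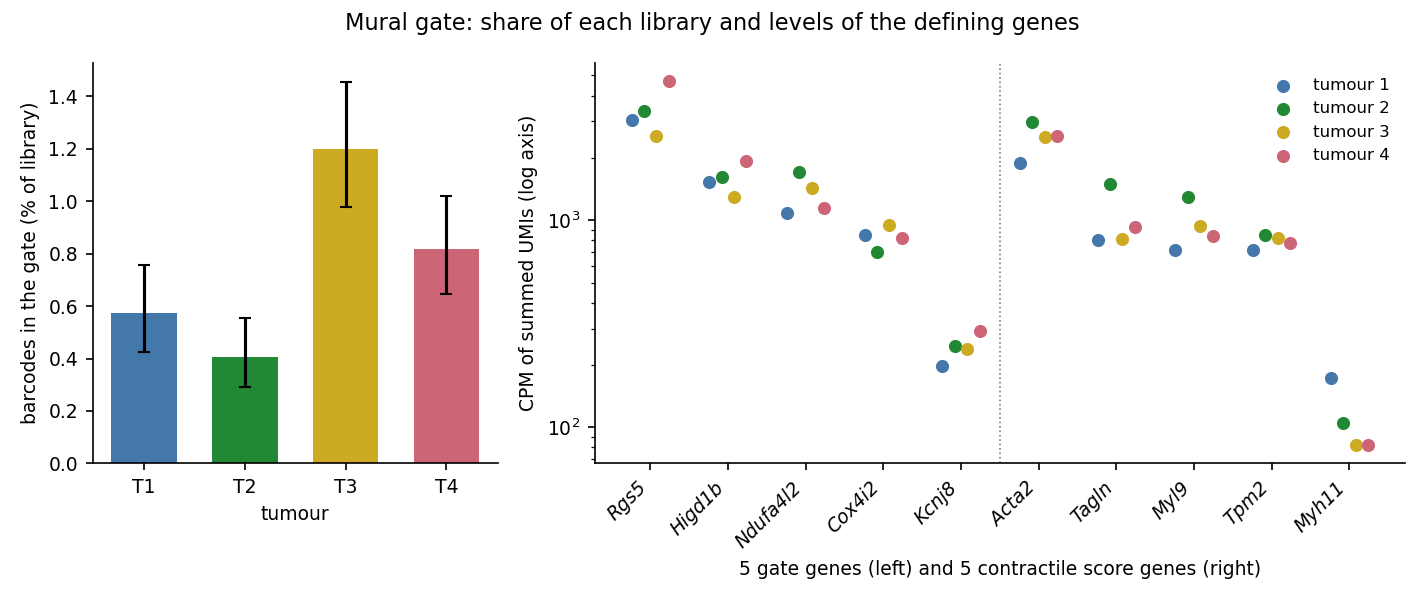
Left, the share of each library in the mural gate, as a bar with its exact 95% binomial interval, for tumours T1 to T4. Right, CPM of the summed UMIs of the gated barcodes for the 5 gate genes and the 5 genes of the contractile score, 1 point per tumour on a log axis: Rgs5 lies between 2554 and 4692 and Myh11 between 81.9 and 173.

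The 5 gate genes chose these cells, so their levels are given as a description. Rgs5, a GTPase activator that damps vasoconstrictor signalling, stood at 3032, 3383, 2554 and 4692 CPM (UMIs of the gene summed over gated barcodes and scaled to a common library total) in tumours 1 to 4 and was seen in 87.6% of gated barcodes. Higd1b, a mitochondrial inner membrane protein, had 1529, 1617, 1296 and 1931 CPM. Tumour 4 was highest for both genes and tumour 3, from the same mouse, lowest. Ndufa4l2, which replaces a respiratory chain subunit under low oxygen, had 1085, 1714, 1425 and 1141 CPM, and Cox4i2, the alternative subunit of cytochrome oxidase, 851, 703, 945 and 825 CPM. Kcnj8, the pore of the vascular ATP-sensitive potassium channel, had 197, 246, 238 and 293 CPM. The 5 genes differed in which tumour was highest. On GRCm38 Kcnj8 lies at chr6:142564837-142571614 beside Abcc9 at chr6:142587862-142702315, both on the minus strand, and Rgs5 lies at chr1:169655501-169695813 on the plus strand. As a limited check on mural RNA in other barcodes, Pdgfrb and Abcc9, which none of the gates use, were counted with every barcode thinned to 1000 UMIs. Pdgfrb was seen in 38.1% of mural barcodes and 0.0900% of luminal ones, which should lack it, and Abcc9 in 13.5% and 0.0660%. The luminal gate allowed at most 1 UMI of the 5 mural genes and at most 1 of the fibroblast genes. Luminal barcodes with mural or fibroblast RNA were thus partly left out beforehand, so these shares cannot measure free RNA. They also say nothing on luminal RNA inside the mural gate. The median depths before thinning were 2004 and 3528 UMIs, and 15 of 267 mural and 43 of 16718 luminal barcodes were too shallow to be thinned.

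The label was checked against markers that the rule did not use. Of 25 pericyte genes listed, 24 had UMIs in the gate and Atp13a5 had none. Pdgfrb, the PDGF-B receptor, stood at 481, 431, 472 and 538 CPM and was found in 59.6% of gated barcodes. It varied little between tumours. Notch3, the Notch receptor of mural cells, had 111, 202, 148 and 263 CPM. Abcc9, the regulatory partner of Kcnj8 in the potassium channel, had 148, 202, 109 and 152 CPM. Des, the intermediate filament desmin, had 136, 316, 269 and 187 CPM. Des was on both the pericyte and the contractile list and is counted in each.

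Of 39 contractile genes, 37 had UMIs and Myocd (the smooth muscle coactivator myocardin) and Pln (phospholamban) had none. Acta2 had 1886, 2979, 2526 and 2551 CPM with UMIs in 70.8% of gated barcodes, and Myl9 had 715, 1301, 933 and 837 CPM in 63.3%. Myh11, the smooth muscle myosin heavy chain, had 173, 105, 82.0 and 81.9 CPM and was seen in only 17.2% of barcodes. Calponin (Cnn1) was seen in 3.37% and smoothelin (Smtn) in 5.24%. The pericyte markers named and Myh11 were thus present in all 4 tumours, while Cnn1 and Smtn were sparse and the coactivator gene Myocd had no UMI. Other listed pericyte genes were low as well. Cspg4 had 37.0, 52.7, 78.1 and 52.7 CPM in tumours 1 to 4, and Anpep 37.0, 26.4, 31.2 and 23.4 CPM. The genes named therefore do not rank the pericyte list above the contractile one. At these depths an unseen transcript does not show that a cell lacks it.

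Depth and other cell types bear on every value below. The median gated barcode held 1140.5, 2295, 2162 and 1988 UMIs in tumours 1 to 4. Between 96 and 129 barcode sequences were shared by any pair of libraries. Of the gated barcodes, 15 had a sequence also present in another library and 0 were gated in both. Fibroblast markers (12 of 12 genes with UMIs) summed to between 2207 and 6090 CPM in the gate, against 14838 to 21444 CPM in the fibroblast gate. Luminal markers (12 of 12) summed to between 3143 and 14608 CPM, basal ones (10 of 10) to between 114 and 1948, endothelial ones (12 of 12) to between 343 and 468 and macrophage ones (9 of 10, Adgre1 at 0) to between 96.7 and 562. As a mean over mice the luminal sum was 8847 CPM in the mural gate and 39167 in the luminal gate. It was 3543 CPM in the fibroblast gate, 5005 in the endothelial, 5261 in the macrophage and 8162 in the basal gate. At least 4 UMIs of fibroblast markers were present in 25 gated barcodes and at least 4 of basal keratins in 13, 10 of them in tumour 3. Their part in the results was not tested beyond leaving those barcodes out, which is reported where it matters.

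Mural barcodes were first set beside barcodes gated as fibroblasts (1283, chosen by Dcn, Lum, Pdgfra, Col14a1 and Dpt), the other main stromal cell. UMIs were summed per mouse and class and tested with edgeR with mouse as a block. Of 4501 genes, 254 were higher in mural cells (5.64%) and 470 lower (10.4%), 16.1% in all. Because the classes were chosen by expression, genes that travel with the gating genes differ partly by the choice of barcodes, which the p-values do not measure. A gene also entered the test through the class where it was high, so the counts for the lists describe them and support no further statement.

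Pericyte genes were mostly higher than in fibroblasts. Of the 17 of 25 that could be tested 15 were higher, with a median log2 difference of 2.55 against -0.05 over all 4501 genes. Gja4, the gap junction protein connexin 37, had 123, 158 and 162 CPM in the mural cells of mice 1 to 3 and 1 UMI in all fibroblasts, a ratio of 544 (counting interval 95.4 to 21718). Des stood at 136, 316 and 237 CPM against 9.17, 0 and 3.30 CPM (log2 difference 5.89 ± 0.44 SE, adjusted p = 1.77e-08). The mice did not overlap for either gene. Abcc9 rose by 4.28 ± 0.37 (adjusted p = 9.56e-08) and Notch3 by 3.74 ± 0.32 (adjusted p = 9.57e-08). Pdgfrb differed less, at 481, 431 and 499 CPM against 229, 148 and 298 CPM (0.92 ± 0.18, adjusted p = 0.000984). Fibroblasts therefore held this receptor too. The 2 tested genes that did not pass were Cd248 (endosialin), at 275 CPM ± 32.4 against 302 ± 90.2 (SD, n = 3 mice), and Anpep (aminopeptidase N), at 30.5 ± 5.70 against 59.0 ± 21.2.

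Contractile genes formed the second group. Of the 26 of 39 tested, 19 were higher, 1 was lower and the median log2 difference was 1.52. Ppp1r14a, an inhibitor of myosin phosphatase, stood at 320.5, 325 and 326 CPM against 0, 0 and 6.59 CPM (5.98 ± 0.37, adjusted p = 1.56e-09). Mylk, the kinase that starts contraction by phosphorylating myosin light chain, had 419, 404 and 468 CPM against 21.4, 18.5 and 59.7 CPM (3.37 ± 0.25, adjusted p = 1.77e-08). Acta2 had 1886, 2979 and 2536 CPM against 287, 398 and 454 CPM (2.57 ± 0.15, adjusted p = 6.09e-10). Fibroblasts thus held measurable Acta2, while Ppp1r14a was close to absent there. Tagln (transgelin) differed less, by 0.87 ± 0.15 (adjusted p = 0.000292), with 1055 against 512 CPM. The gene that was lower was Ckb (brain creatine kinase, -1.44 ± 0.33, adjusted p = 0.00405).

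Among genes outside these lists, the antitrypsin gene Serpina1b had the largest fitted difference. Serpina1b had 247, 509.7 and 276 CPM in the mural cells of mice 1 to 3 and 1 UMI in all fibroblasts, a ratio of 1099.8 (counting interval 195 to 43660). Serpina1d followed with 28 UMIs against 0, at least 52.4-fold higher. The Serpina1 genes are near-identical copies that share reads, so the split between them is uncertain. Olfr558, an olfactory receptor gene known from vascular smooth muscle, had 41 UMIs against 0, at least 76.7-fold higher. Esam, an adhesion molecule also made by endothelium, stood at 123, 202 and 105 CPM against 0, 2.32 and 1.83 CPM (5.90 ± 0.37, adjusted p = 1.77e-09). Dlk1 (delta-like homologue 1) was uneven between mice, at 61.6, 325 and 79.6 CPM, and rose by 4.69 ± 0.43 (adjusted p = 5.31e-07).

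Signalling genes that set vessel tone included both subunits of the nitric oxide receptor. Gucy1a1 had 296, 299 and 171 CPM against 6.11, 9.27 and 8.06 CPM (4.56 ± 0.34, adjusted p = 1.95e-08) and Gucy1b1 rose by 4.05 ± 0.46 (adjusted p = 2.8e-06). The G protein brakes Rgs4 and Rgs16 were higher as well, by 4.28 and 3.86. The endothelin receptor Ednra was measured at 81.9 ± 10.1 against 78.6 ± 47.4 CPM and did not pass (adjusted p = 0.700). In all 4 of 12 tested genes of this list passed, each higher.

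Among the growth factor genes, 3 of 23 tested were higher and 4 lower. Pdgfa, a ligand of PDGF receptors, had 234, 211 and 215 CPM against 21.4, 34.7 and 33.3 CPM (2.70 ± 0.26, adjusted p = 3.68e-07). Igf1, insulin-like growth factor 1, fell by 2.78 on the log2 scale, with 51.6 ± 39.9 against 284 ± 90.03 CPM, and the TGF-beta receptor gene Tgfbr2 fell by 2.58, with 45.1 ± 3.72 against 266 ± 78.9 CPM. Angpt1, the mural ligand of the endothelial receptor Tie2, had 0, 0, 11.7 and 0 CPM in tumours 1 to 4, and Vegfa had 0, 8.79, 7.81 and 5.85 CPM. Both lay near the detection limit in the gated cells.

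Matrix genes were read as an interstitial and a basement membrane list. Of 37 interstitial matrix genes tested, 30 were lower in mural cells and 3 higher, with a median log2 difference of -1.90. Mfap5, a microfibril protein, had 210, 457 and 297 CPM against 2096, 3357 and 2175 CPM (-3.09 ± 0.18, adjusted p = 6.09e-10). Tenascin C (Tnc) fell by 2.95 on the log2 scale. Col1a1 stood at 1430 ± 810 against 4997 ± 154 CPM and Col3a1 at 1210 ± 637 against 5320 ± 922 CPM. RNA of both these collagens was lower than in fibroblasts, which did not hold for every collagen gene. These mural means include the 25 gated barcodes with at least 4 fibroblast marker UMIs, whose part in the collagen RNA was not tested. Without the gated barcodes holding fibroblast or basal marker UMIs the list median was -2.80. The 3 that rose were Serpine2 (a protease inhibitor, 1.20 ± 0.19), Col5a3 (1.06 ± 0.21) and Aspn (asporin, 0.74 ± 0.22). Of 19 basement membrane genes, 6 rose and 5 fell. The collagen genes Col18a1, Col4a1 and Col4a2 were among the 6. Col18a1 had 357, 264 and 187 CPM against 64.2, 41.7 and 59.3 CPM. Itga1, the collagen-binding integrin alpha 1 chain, had 296, 325 and 283 CPM against 42.8, 32.4 and 55.3 CPM (2.53 ± 0.24, adjusted p = 2.49e-07), and Sparcl1 rose by 3.32 ± 0.24 (adjusted p = 1.23e-08). Sparc, its relative, fell by 1.20 on the log2 scale.

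The genes furthest below the fibroblast level were C1qtnf3, Sfrp4, Gfpt2 and Mmp3. C1qtnf3 (a secreted C1q-like protein) had 1 UMI in mural cells against 288 in fibroblasts, a ratio of 51.3 (counting interval 9.14 to 2034), and Sfrp4 (a Wnt antagonist) 2 against 419, a ratio of 37.3 (10.3 to 309). Pi16, a marker of adventitial fibroblasts, had 0, 70.3 and 23.4 CPM against 379, 709 and 358 CPM (-4.00 ± 0.29, adjusted p = 1.77e-08). Its mural value was highest in mouse 2, where 6 of 39 gated barcodes carried at least 4 fibroblast marker UMIs.

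Among hypoxia and glycolysis genes 7 of 14 tested were higher than in fibroblasts and 1 lower. Epas1, the HIF-2 alpha gene, had 123, 149 and 138 CPM against 9.17, 6.95 and 12.8 CPM (3.49 ± 0.29, adjusted p = 8.5e-08). Ankrd37, a HIF target, rose by 3.16 ± 0.48 (adjusted p = 7.28e-05), and the glycolytic genes Tpi1 and Eno1 by 1.04 and 0.95. Adm (adrenomedullin) was the one that fell, by 1.49 on the log2 scale. In the comparison with endothelium, described below, 2 of these 14 genes were higher and 2 lower. Epas1 and Ankrd37 did not pass there, with Epas1 at 111, 146 and 125 CPM in the endothelial cells of mice 1 to 3. The gate genes Higd1b, Cox4i2 and Ndufa4l2 each have a more widely expressed relative, and these were read beside them. Ndufa4, the relative of Ndufa4l2, had 575 ± 204 CPM against 784 ± 83.4 (-0.60 ± 0.17, adjusted p = 0.0153), while Cox4i1, the relative of Cox4i2, had 2353 ± 119 CPM against 1707 ± 106 (0.33 ± 0.11, adjusted p = 0.0383). RNA of both common forms was therefore present in the summed gated barcodes. Whether single barcodes held a common form together with its alternative one was not counted. Higd1a rose by 0.68 ± 0.19 (adjusted p = 0.0154), a difference of -0.0176 without the barcodes holding fibroblast or basal marker UMIs.

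The number of calls against fibroblasts depended on mouse 3, which gave 178 of the 267 barcodes: without it 264 genes passed in all in place of 724. Without the mouse block 482 passed.

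**Figure D2:**
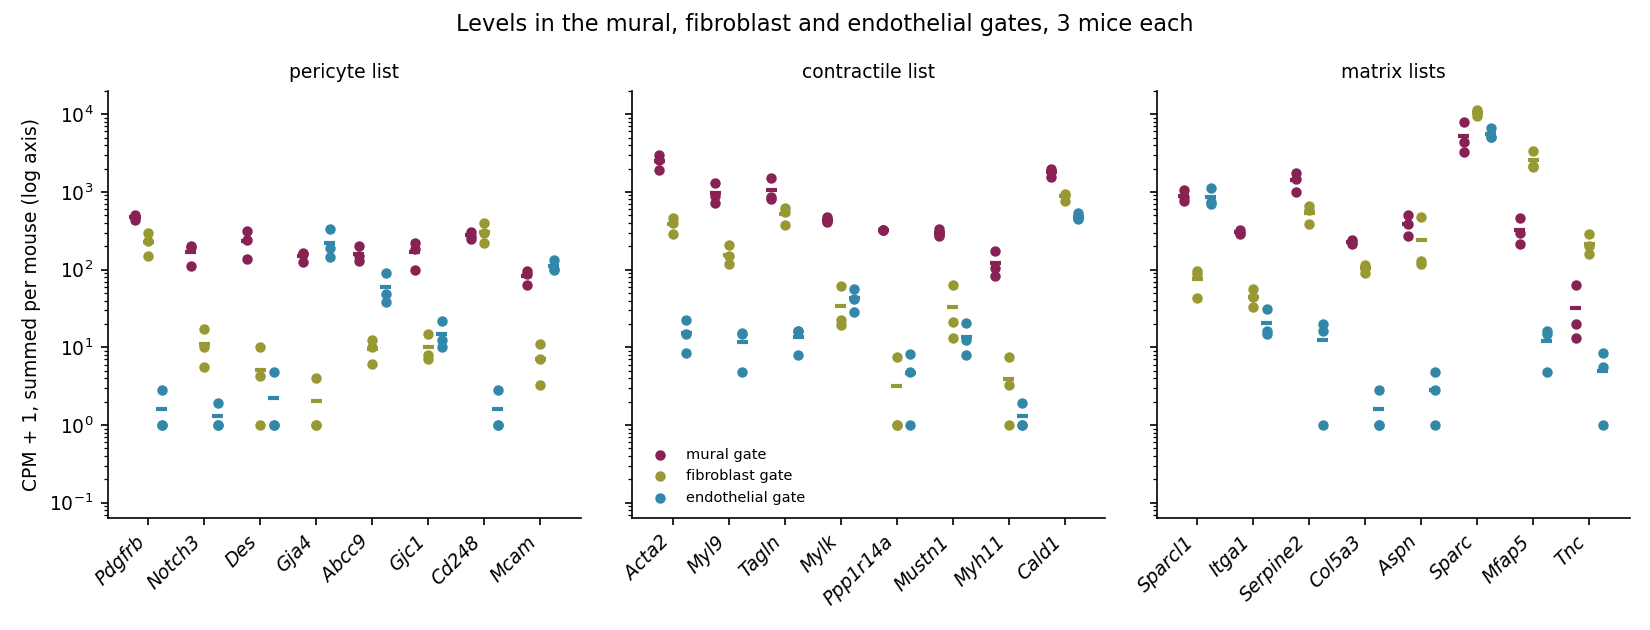
CPM plus 1 (log axis) of summed UMIs in the mural, fibroblast and endothelial gates, 1 point per mouse with a line at the mean of 3 mice. Pericyte and contractile genes such as Des and Ppp1r14a lie above both other gates, Gja4 overlaps with endothelial cells, and Mfap5 and Tnc are highest in fibroblasts.

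The second comparison was with the endothelial gate (684 barcodes, chosen by Cdh5, Pecam1, Kdr, Emcn and Egfl7), the cells that mural cells surround. It uses the same mural sums. Of 4501 genes 555 were higher in mural cells (12.3%) and 509 lower (11.3%), 23.6% in all. Contractile genes were higher for 21 of 26 tested, with a median log2 difference of 2.95 against -0.00 over all genes. Acta2 had 1886, 2979 and 2536 CPM against 13.8, 7.50 and 21.6 CPM (7.26 ± 0.22, adjusted p = 3.19e-14). Actg2, the other smooth muscle actin, had 93 UMIs against 0, at least 75.8-fold higher.

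Pericyte genes were higher for 13 of 17 and lower for 1. Pdgfrb had 301 UMIs against 2 in endothelium, a ratio of 368 (counting interval 101 to 3054), and Notch3 115 against 1, a ratio of 281 (49.5 to 11209). Heyl, a target of Notch signalling, had 48 against 0, at least 39.1-fold higher. Of the 6 Notch pathway genes tested, Notch3 and Heyl were higher, Dll4 and Nrarp lower, and Notch1 and Hes1 did not pass. The ligand gene Dll4 had 1 UMI in mural cells and 89 in endothelium, a ratio of 36.4 (6.36 to 1453). Nrarp, a feedback inhibitor of Notch signalling, had 3 UMIs against 67, and the receptor gene Notch1 stood at 53.6 ± 29.1 against 86.1 ± 14.7 CPM (adjusted p = 0.0884). Some listed pericyte genes did not separate the classes. Gja4 stood at 148 ± 21.2 against 220 ± 98.0 CPM and Mcam, an adhesion molecule, at 81.3 ± 17.8 against 110 ± 18.5 CPM, neither of which passed (adjusted p = 0.559 and 0.665). Gpihbp1, the capillary lipase anchor, was the one that fell, with 19.4 ± 18.6 against 1748 ± 775 CPM.

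Among growth factor genes 6 of 23 were higher and 11 lower. S1pr3, the sphingosine phosphate receptor of the vessel wall, had 36 UMIs against 1, a ratio of 88.1 (14.8 to 3574), and S1pr1, the endothelial receptor, 2 against 231, a ratio of 47.2 in the other direction (12.9 to 392). The receptors Tek and Tie1 had 1 and 2 UMIs in mural cells. Endothelin receptors split the same way: Ednra had 53 UMIs against 1, a ratio of 130 (22.3 to 5217), while Ednrb had 24.7, 0 and 9.37 CPM against 159, 202 and 94.6 CPM (-3.59 ± 0.50, adjusted p = 1.33e-05). Interstitial matrix genes were higher for 33 of 37, with a median of 4.99. Mgp, matrix Gla protein, stood at 6977 ± 1192 against 92.4 ± 71.2 CPM (6.08 ± 0.26). Without the barcodes holding fibroblast or basal marker UMIs 27 of 37 were higher with a median of 3.60. Of 19 basement membrane genes 3 were higher and 2 lower, and Col4a1 stood at 831 ± 42.9 against 1127 ± 58.7 CPM (-0.39 ± 0.20, adjusted p = 0.182). Without mouse 3, 519 genes passed in all in place of 1064.

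Inside the gate, pericyte genes were set against smooth muscle genes by a contractile score, the UMIs of Acta2, Tagln, Myh11, Tpm2 and Myl9 per 10000 UMIs of a barcode. Its median was 23.0, 33.6, 31.8 and 26.4 in tumours 1 to 4. It ran from 0 in 28 barcodes to 631, and 54 barcodes had at least 100. In tumour 1 the highest score was 556 and the next 201, and in tumour 2 they were 631 and 290. Below these the scores formed a continuous range in each tumour with no clear gap between a low and a high set. A score rests on few UMIs per barcode, so a range without a clear gap does not show a single kind of cell. Each tumour was divided at its own median into a high range (135 barcodes, median score 76.0, median depth 1886 UMIs) and a low range (132 barcodes, 8.55, 2271 UMIs). These are ranges of a score and not cell types, and 53 barcodes lay within 1.5-fold of the dividing value.

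**Figure D3:**
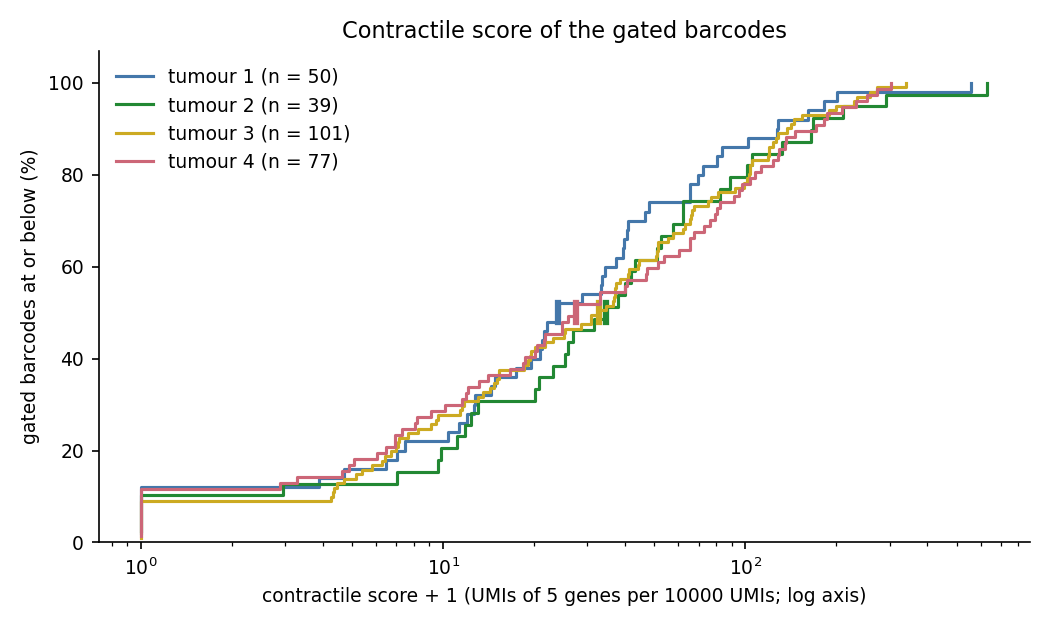
Cumulative share of gated barcodes (vertical axis, percent) at or below a given contractile score plus 1 (log axis), 1 line per tumour, with a thick mark at each median between 23.0 and 33.6. The lines rise steadily and overlap, and 8.91% to 12% of barcodes in each tumour have a score of 0.

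The score genes themselves followed by construction. Acta2 had 4790 CPM in the high range and 394 in the low one, and Myh11 had 230 and 20.7. Of 791 genes tested between the ranges with mouse as a block, 24 were higher in the high range (3.03%) and 17 lower (2.15%), 5.18% in all. With another scaling (RLE size factors in place of TMM) 25 were higher and 27 lower. Of the 39 contractile genes listed, the 5 score genes were left out and 8 of the rest had enough counts to be tested. All 8 were higher, with a median log2 difference of 1.94 against 0.01 over all genes. A gene could enter through the high range alone, so this count and median describe the 8 and support no statement on the list. Without the filter on low counts 14 of 32 passed, each higher, and 30 had a positive difference.

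Mustn1, a small nuclear protein of the musculoskeletal lineage, had 544, 594 and 521 CPM in the high range of mice 1 to 3 and 23.5, 100.1 and 57.1 CPM in the low range (3.09 ± 0.32, adjusted p = 0.00343). Ppp1r14a had 544, 557 and 612 CPM against 118, 117 and 74.7 CPM (2.61 ± 0.28, adjusted p = 0.00343). Tropomyosin 1 (Tpm1) had 1969, 2377 and 2462 CPM against 399.8, 567 and 496 CPM (2.19 ± 0.14, adjusted p = 0.000243). In all of these the lowest high value stood well above the highest low value. Mylk had 674, 743 and 792 CPM against 188, 100.1 and 185 CPM (2.17 ± 0.25, adjusted p = 0.00403). Crip1 had 12695, 13220 and 10445 CPM against 3998, 4622 and 2953 CPM (1.64 ± 0.08, adjusted p = 5.74e-05). Csrp1, a LIM protein of smooth muscle, Cald1 (caldesmon) and Myl6 rose by 1.72, 1.06 and 0.94. The exact box printed above for Myl6 and the altered ones for Crip1 thus belong to genes that passed. No box of either kind was found upstream of Mustn1, Ppp1r14a, Tpm1 or Mylk, which says only that these letters are not in the 250 bases read.

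Of the 5 pericyte genes that could be tested, edgeR called 0 different between the ranges, 0 had an unadjusted p under 0.05 and DESeq2 also called 0. Pdgfrb had 389, 316 and 461 CPM in the high range and 564, 534 and 532 CPM in the low range (-0.46 ± 0.20, adjusted p = 0.269), lower in the high range of each mouse. Abcc9 had 207, 204 and 155 CPM against 94.1, 200.2 and 101 CPM (0.49 ± 0.36, adjusted p = 0.490), Cd248 331 ± 43.4 against 225 ± 90.8 CPM (0.71 ± 0.31, adjusted p = 0.261), Ebf1 711 ± 218 against 617 ± 246 CPM and Gjc1 (connexin 45) 166 ± 101 against 169 ± 29.6 CPM. A p that misses the threshold does not show equal levels. Without the filter on low counts 24 could be tested, of which 18 had a positive difference and 1 passed. That gene was Des, which is also on the contractile list. Restricted to barcodes with at least 2000 UMIs, 3 of 10 were higher in the high range (Art3, Des and Gja4), but mouse 1, with 7 and 6 such barcodes, was left out of that fit. Depth and the loss of mouse 1 cannot be told apart there; at full depth without mouse 1, 1 of 15 was higher (Des).

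Of the pericyte genes too low for the test, 6 are given here, chosen after their values were seen. Mcam had 155, 111 and 145 CPM in the high range and 23.5, 16.7 and 52.7 CPM in the low one, with no overlap between the ranges. Des had 155, 538 and 366 against 118, 117 and 123 CPM, also without overlap, and Vtn (vitronectin) 25.9, 204 and 115 against 0, 16.7 and 39.5 CPM, with overlap. Anpep went the other way, at 25.9, 0 and 20.1 against 47.0, 50.1 and 35.1 CPM. Heyl (51.8, 92.8 and 70.2 against 47.0, 83.4 and 87.9 CPM) and Steap4 (0, 55.7 and 85.2 against 47.0, 83.4 and 57.1 CPM) overlapped. These values rest on few UMIs, 41 and 14 for Mcam, and have no test. The gate genes, described only, had 4263 against 2394 CPM for Rgs5, 1803 against 1356 for Higd1b, 845 against 793 for Cox4i2, 1527 against 1230 for Ndufa4l2 and 216 against 251 for Kcnj8. Rgs5 was higher in the high range of each mouse, while Kcnj8 was higher in mice 2 and 3 and lower in mouse 1.

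**Figure D4:**
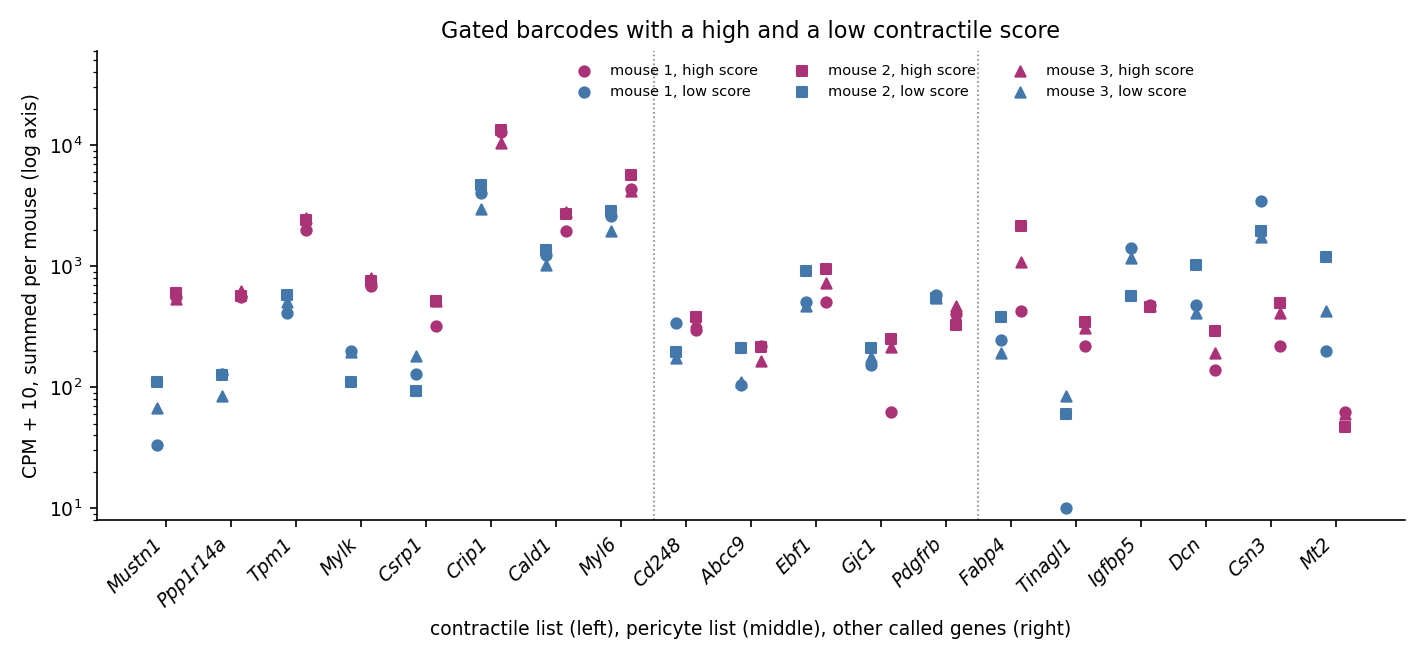
CPM plus 10 (log axis) of summed UMIs in gated barcodes with a high (red) and a low (blue) contractile score, 1 symbol shape per mouse. The 8 contractile genes on the left are those with enough counts to be tested, and each lies higher in the high range. Of all 791 tested genes 3.03% were called higher. The pericyte genes in the middle did not pass, and Pdgfrb is lower in the high range of each mouse. Csn3 and Mt2 on the right are lower in the high range.

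Dividing each tumour into 4 score groups of like size showed the shape of these relations. Tpm1 had 468, 532, 1213 and 3431 CPM from the lowest to the highest group (means of 3 mice) and Mylk 128, 195, 516 and 986 CPM, both rising throughout. Mustn1 had 62.2, 59.5, 135 and 1033 CPM, rising mainly in the highest group. Lmod1, the leiomodin of smooth muscle thin filaments, had 5.68, 15.8, 79.4 and 193 CPM. Abcc9, the potassium channel subunit outside the gate, had 72.8, 188, 236 and 157 CPM. The gate genes Kcnj8 (163, 332, 291 and 146 CPM), Cox4i2 (552, 1027, 1070.4 and 584 CPM) and Higd1b (889, 1764, 2230.4 and 1360 CPM) chose the cells, so their levels across the groups are listed only. No test was made across the score groups. The lowest group had the highest Dcn level, 1049 ± 632 CPM against 196 ± 306 in the highest group, and its Wfdc18 level, a milk-lineage transcript of luminal cells, was 9587 ± 7898 CPM against 3473 ± 4854.

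**Figure D5:**
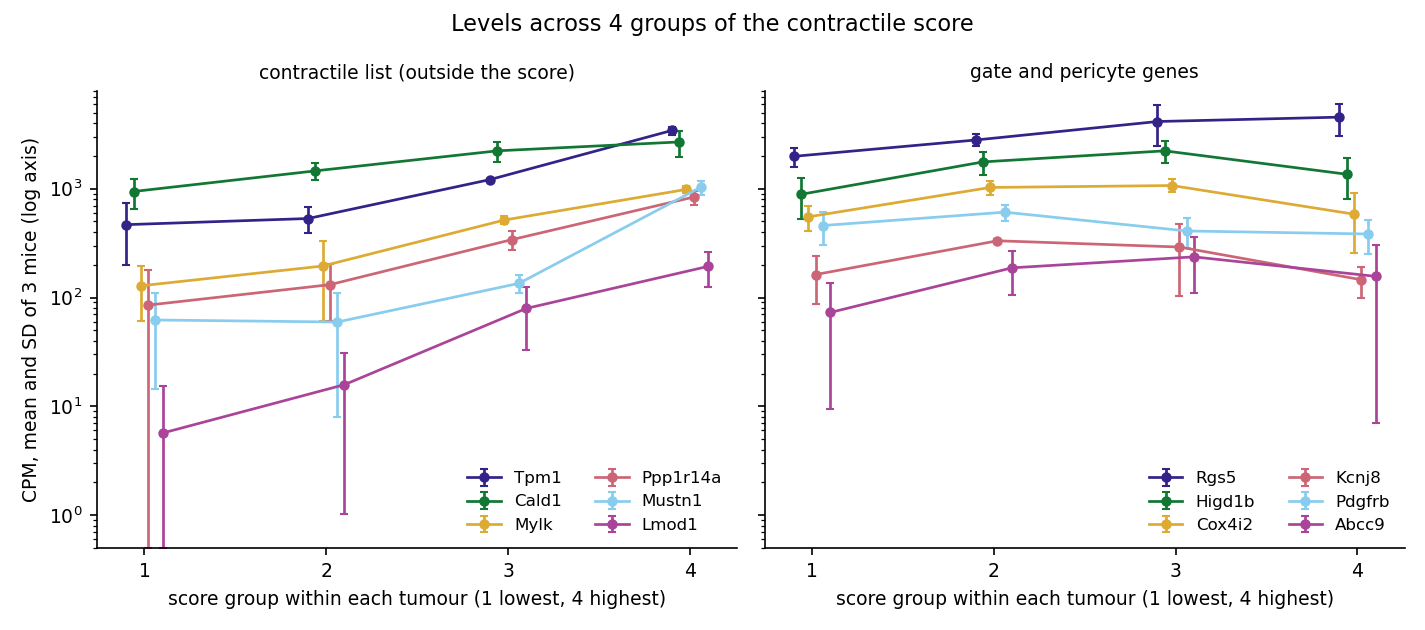
CPM (log axis, mean and SD of 3 mice; bars that pass the lower end of the axis run to it) across 4 groups of the contractile score within each tumour. Contractile genes outside the score rise to the highest group, with Tpm1 from 468 to 3431, and Abcc9 goes from 72.8 to 236 in the next-to-highest group. Rgs5, Higd1b, Cox4i2 and Kcnj8 are gate genes that chose the cells and are shown as a description.

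Myh11, the gene of the score most typical of smooth muscle, was also used on its own. It had at least 1 UMI in 46 barcodes, 8, 8, 20 and 10 in tumours 1 to 4. Those barcodes had a median depth of 1878.5 UMIs and the other 221 of 2042. Mylk was found in 73.9% of the barcodes with Myh11 and 41.6% of those without, Lmod1 in 30.4% and 9.05%, and Cnn1 in 13.0% and 1.36%. Of the 6 pericyte genes compared this way, 3 had a lower share in the barcodes with Myh11: Abcc9 with 17.4% and 23.1%, Pdgfrb with 54.3% and 60.6%, and Vtn with 10.9% and 14.0%. The other 3 had a higher one, Notch3 with 41.3% and 30.3%, Des with 50% and 31.7%, and Cspg4 with 17.4% and 10.9%. Of these, Des is also on the contractile list. Barcodes with Myh11 thus still held pericyte genes, in no single direction. These shares describe pooled tumours and have no test.

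Genes outside both lists that rose with the score were led by Tinagl1, a basement membrane protein made by smooth muscle, at 207, 334 and 296 CPM against 0, 50.1 and 74.7 CPM (2.33 ± 0.46, adjusted p = 0.0346). Fabp4, the fatty acid carrier of adipocytes and capillary endothelium, had 415, 2117 and 1068 CPM against 235, 367 and 180.1 CPM (2.21 ± 0.31, adjusted p = 0.00866). The adipocyte markers Adipoq, Plin1 and Cidec were at 0 in both ranges. The adipocyte list as a whole, which holds Fabp4, summed to 1319.7 ± 861 against 449 ± 177 CPM with 2 and 3 of its 6 genes detected. Fabp4 stood at 1239.6 ± 958 CPM in the endothelial gate, and the endothelial markers (10 of 12 with UMIs in each range) summed to 413 ± 41.6 CPM in the high and 381 ± 138 CPM in the low range. Serpina1b, met above, rose by 1.21 ± 0.24 (adjusted p = 0.0346). Cnn2, Gadd45g, Tppp3 and Anxa1 rose by 1.61, 1.52, 1.47 and 1.31.

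Genes lower in the high range were led by Mt2, a metallothionein, at 51.8, 37.1 and 50.1 CPM against 188, 1185 and 417 CPM (-3.46 ± 0.42, adjusted p = 0.00466). Csn3, the milk protein kappa casein, had 207, 483 and 401 CPM against 3433, 1936 and 1727 CPM (-2.52 ± 0.31, adjusted p = 0.00472). Apoe fell by 1.45, Neat1 by 1.34, Igfbp5 by 1.15 and Fxyd3 by 1.06, and Dcn had 129.5, 279 and 181 CPM against 470.3, 1018 and 399.8 CPM (-1.54 ± 0.25, adjusted p = 0.0172). Rps18 and Rpl37a, which encode ribosomal proteins, fell by 0.38 and 0.40. Csn3 and Dcn belong to luminal and fibroblast cells. Luminal markers as a list (12 of 12 genes with UMIs in both ranges) summed to 10364, 3082 and 4031 CPM in the high range and 18459.7, 7125 and 9082 CPM in the low range, lower in the high range of each mouse. Fibroblast markers (11 and 12 of 12) summed to 3075 ± 842 against 4321 ± 3191 CPM and basal ones (9 and 10 of 10) to 269.96 ± 254 against 930.4 ± 1215 CPM. Without the gated barcodes holding fibroblast or basal marker UMIs, 34 of 579 tested genes were higher and 19 lower. Of the 41 main calls 25 were kept. The interstitial matrix median went from -0.13 (19 genes tested) to 0.20 (14 tested). Beyond that refit, the part of these cells or of free RNA in the genes lower in the high range was not tested.

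The 41 calls between the ranges depended on mouse 3, with 2 left without it (against 62 without mouse 2), and on the pairing of ranges within mice, with 6 left without the mouse block. Of the contractile genes tested, 2 of 9 passed without mouse 3, 5 of 8 without the block, 7 of 8 with DESeq2 and 8 of 8 without the barcodes holding fibroblast or basal marker UMIs, with every tested difference positive in these 4. With at least 2000 UMIs, and so without mouse 1, 12 of 15 passed and 14 were positive, and without the filter 14 of 32 passed.

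The thoracic and inguinal tumours of mouse 3 were compared within the gate as 1 library each, with no replicate and no test. Of 1480 genes at 100 CPM or more in either, 55 were at least 2-fold higher in the thoracic tumour (3.72%) and 80 in the inguinal one (5.41%). None of 18 contractile genes passed 2-fold, and their median ratio was 0.881. Acta2 had 2526 and 2551 CPM. Of 11 pericyte genes Heyl was higher in the thoracic tumour (102 against 46.8 CPM) and Mcam in the inguinal one (140.4 against 66.4 CPM). The largest ratios were in genes of other cells. The neutrophil genes S100a9 and S100a8 had 1825 and 2095 CPM in the inguinal tumour against 3.90 and 15.6 CPM, the keratin Krt17 had 269 CPM in the thoracic tumour against 5.85, and Apoe had 1722 against 193. Krt17 and S100a9 rested on 1 UMI each in the tumour where they were low. Of 9 luminal markers 8 were at least 2-fold higher in the inguinal tumour, and of 5 basal markers 2 were in the thoracic one. The part of these other cells in the ratios was not tested.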

How the data were processed

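Single-cell RNA libraries of 4 tumours from 3 mice were read from the authors' deposited matrix of UMI counts per gene and barcode (10x Genomics), made with FastQC and Cell Ranger 2.2.0 on mm10/GRCm38 per the submitters' processing notes. Counts were used as deposited, with 55472 genes and library totals of 20281799, 39370565, 29618360 and 31158441 UMIs. The members and gene lists were chosen with earlier results of these data known. No doublet caller was run, and the gates limit UMIs of other cell types. Gates, sums and thinning used Python 3.11.15 with pandas 2.3.3. UMIs were summed per mouse, tumours 3 and 4 together, and tested with edgeR 4.0.16 (quasi-likelihood, TMM, filterByExpr, mouse as a block because the arms come from the same animals; R 4.3.3) with Benjamini-Hochberg adjustment and a threshold of 0.05 over all genes tested. Genes used to define gates or score were not tested where they chose the cells. Fibroblast and endothelial gates needed at least 4 UMIs of their 5 genes and at most 1 of each other class. Standard errors follow each log2 difference after ±; ± after CPM is the SD over mice, n = 3. Intervals are exact binomial or Poisson and cover counting error only.

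Named genes were those past the threshold in the same direction in every mouse, with at least 50 CPM, having the 12 highest and 12 lowest differences, the listed pericyte and contractile genes, up to 4 each way of each other list, and the 6 most different each way between the tumours of mouse 3. Angpt1, Vegfa, Mgp, Col1a1, Col3a1, Col4a1 and Wfdc18 were chosen after their values were seen. On simulated counts the class model found 83 of 100 planted 2-fold changes (4170 genes tested) and the score model 76 of 95 (780 tested). Unchanged genes called were 6 and 2. Changes were planted only in genes with enough counts, with a common spread and no difference between mice. These rates therefore do not cover genes at low counts. Alternatives were another normalization, no filter on low counts, DESeq2 1.42.0, no block, other gate limits, deeper barcodes, other divisions of the score, each mouse left out and, added after seeing the data, gated barcodes with 4 or more fibroblast or basal marker UMIs left out.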

Additional observations from a re-analysis of the deposited data

How the results depend on the processing

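Against fibroblasts 724 genes passed, and 454 did with DESeq2 and 395 with barcodes of at least 2000 UMIs. With no replicate block, that is without the pairing of classes within mice, 482 passed. Leaving out 1 mouse gave 264 to 810, with 264 without mouse 3. Against endothelium 1064 passed, 603 with at least 2000 UMIs, 856 without the replicate block and 519 to 1123 with 1 mouse left out, 519 being without mouse 3. Between the score ranges 41 passed, 92 without a filter on low counts, 16 with DESeq2, 6 with no replicate block, 21 with a gate minimum of 6, 26 with at most 1 UMI of Krt8 and Krt18, 86 with at least 2000 UMIs, where mouse 1 had too few barcodes and was left out as well, and 2 to 62 with 1 mouse left out. The gate share was 0.515% to 0.748% over the gate settings and 0.490% to 0.785% with 1 mouse left out. Differences that changed sign, none of which passed in the changed setting, were Cd248 against fibroblasts (0.0595 without mouse 2, with -0.37 to 0.0595 over the mice left out), Higd1a against fibroblasts (-0.0176 without barcodes holding fibroblast or basal UMIs), Gja4 (0.13 without mouse 2, with -0.72 to 0.13 over the mice left out) and Mcam (0.10 with at least 2000 UMIs) against endothelium, and Gjc1 between ranges (-0.16 with DESeq2, -0.0306 without mouse 2 with -0.0306 to 0.21 over the mice left out, -0.34 at a gate minimum of 6, -0.0667 at the lower keratin limit and -0.00893 with 1 dividing value for all tumours). The causes were not tested. A division on Myh11 could not be fitted, since only mouse 3 had 10 or more barcodes with it. Few barcodes and shallow depth limit the low genes most, and mouse 3 gave 178 of the 267 barcodes.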
